A study of Mus musculus with 18 samples.

Results

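The A:T base pairs of a reporter gene were followed in cells that carried the deaminase AID or its inactive form. The reporter is mOrangeSTOP, a coding sequence for an orange fluorescent protein with an in-frame stop codon, and position 1 is where that coding sequence begins. The members are every position whose reference base is A or T and that had at least 1000 base calls past the quality limit in all 18 libraries. This gave 248 positions, 147 A and 101 T, of the 674 positions kept, and the other 426 were C:G base pairs. The deposited stretch ran from position 45 to 723 and held 251 A:T positions, of which 3, between 700 and 704, fell under the minimum. The reporter is a transgene, so no coordinate in the mouse genome applies to it.

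All libraries came from NIH-3T3, a mouse fibroblast line, transduced together with the reporter and an AID vector and kept for 11 days with 1 µM OHT (4-hydroxytamoxifen), the ligand that switches on proteins fused to the estrogen receptor domain. The 6 groups crossed an active enzyme, AID-ER, or the catalytically inactive AID-E58Q-ER with an empty vector (Control), a vector for Ugi or a vector for UNG. They are called AID and AID-E58Q here, and the libraries with the inactive enzyme serve as the background. Each group had 3 libraries, numbered by experiment. Whether each experiment was a transduction of its own is not stated, so the p-values speak of the spread among the libraries alone, which may be technical. The reporter was amplified for 25 cycles, sheared and amplified for 10 more cycles as a library. AID, Ugi and UNG were brought in by retroviral vectors into fibroblasts, which are not B cells.

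AID turns cytosine into uracil and does not act on adenine or thymine. In B cells of the germinal centre, a large part of the mutations of the antibody genes is nevertheless found at A:T, because repair around the uracil can remove a patch of DNA, which the error-prone DNA polymerase eta refills. UNG, the uracil-DNA glycosylase, competes for the same uracil and removes it, and Ugi, a small phage protein, blocks UNG. Polymerase eta makes many of its errors at an A preceded by A or T, written WA, or TW when read on the other strand (W stands for A or T). Of the 248 positions, 74 lay in WA/TW and 174 did not. The preferred sequence of AID is WRCY, or RGYW on the other strand (R stands for a purine, Y for a pyrimidine), and its palindromic core AGCT holds targets on both strands.

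The A:T positions nearest to the strongest targets are those of the AGCT tetramers themselves. The 2 windows that follow are shown because the central C and G of these tetramers carried many AID-dependent substitutions while the A and T beside them can be read in the same molecules. The capitals mark the AGCT.
A149: cagaccgctaAGCTgaaggtgacca
A230: ctccaaggcctAGCTgaagcacccc
The first window spans positions 139 to 163 and holds A149 and T152. The second spans 219 to 243, and the A and G of its AGCT are the last bases of the stop codon, T229, A230 and G231 (codon 77).

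A further 6 windows are shown because they hold the 3 highest mean A>C and the 3 highest mean T>G frequencies over the 9 AID-E58Q libraries. The capital marks the position named, and each window has the 10 bases on either side of it.
T80: gagggctccgTgaacggccac
T94: cggccacgagTtcgagatcga
T147: ttcagaccgcTaagctgaagg
A239: tagctgaagcAccccgccgac
A660: aacagtacgaAcgcgccgagg
A677: gagggccgccActccaccggc

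The libraries held 24915866 to 95011754 calls past the quality limit, and at A:T positions the median was 38479 to 144184 calls. With 3 counts as the limit, an A:T substitution never seen at the median coverage could still have a frequency of 0.208 per 10000 calls in the library with most calls and 0.780 in that with fewest. In all, 2560 to 27928 A:T substitutions were called per library. In 9 libraries, 6 with AID and 3 with AID-E58Q, the reads at positions 45 to 59 stopped at 499049 to 499939, against at most 253997 elsewhere, so the coverage of the 8 A:T positions there may be held down. Since PCR products were read without molecular identifiers, all such limits cover counting error only.

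A:T base pairs carried nearly the same substitution frequency with active and with inactive AID in all 3 arms. Frequencies are calls of a substitution per 10000 calls, averaged over the 248 positions. In the Control arm they stood at 3.51, 2.49 and 8.34 with AID in experiments 1 to 3, against 3.06, 2.21 and 8.32 with AID-E58Q. In the Ugi arm they stood at 3.22, 2.45 and 8.36 against 3.35, 2.55 and 8.26. In the UNG arm they stood at 3.97, 2.37 and 8.38 against 3.56, 2.58 and 8.55. The groups overlapped in every arm, and the libraries of experiment 3 stood above those of the others with either enzyme. With such differences between experiments, an overlap across them cannot exclude a modest difference within an experiment.

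Within an experiment, the AID library was 1.00- to 1.15-fold its AID-E58Q partner in Control (geometric mean 1.09, higher in 3 of 3), 0.959- to 1.01-fold in Ugi (0.977, higher in 1 of 3) and 0.917- to 1.12-fold in UNG (1.00, higher in 1 of 3). Over the 9 pairs the geometric mean was 1.02, and 5 of 9 ratios were above 1. In the same libraries the 36 C:G positions in WRCY/RGYW, which AID attacks, stood 6.47- to 13.9-fold higher with AID in Control, 8.83- to 40.3-fold in Ugi and 6.03- to 11.8-fold in UNG. Since the members were chosen with these data known, these averages are given as values with no test.

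Each of the 6 kinds of A:T substitution had ratios on both sides of 1. The ratios of AID to AID-E58Q over the 9 pairs ran from 0.888 to 1.20 for A>G and from 0.869 to 1.09 for T>C, the transitions. They ran from 0.922 to 1.21 for A>T, 0.991 to 1.31 for T>A, 0.811 to 1.25 for A>C and 0.893 to 1.30 for T>G, the transversions. T>A was above 1 in 7 of 9 pairs (geometric mean 1.08), in 3 of 3 in Ugi (1.02 to 1.11), 3 of 3 in UNG (1.07 to 1.14) and 1 of 3 in Control. Its groups overlapped in each arm across experiments, whose levels differ. The other kinds were above 1 in 4 to 6 of 9 pairs.

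**Figure D1:**
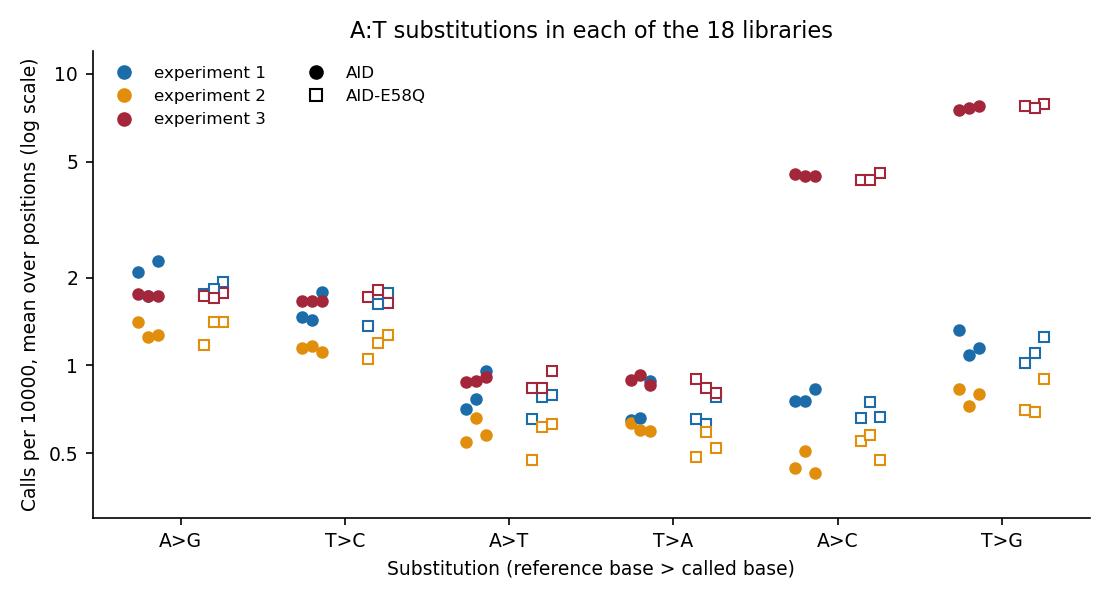
Mean frequency of each A:T substitution in each library (calls per 10000 calls, logarithmic axis), with filled circles for AID, open squares for AID-E58Q and 1 colour per experiment; within each set of 3 the arms run Control, Ugi, UNG. AID and AID-E58Q libraries of an experiment lie at nearly the same height. A>C and T>G stand at 4.31 to 4.58 and 7.50 to 7.90 in experiment 3 and at 1.33 or less in experiments 1 and 2.

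The excess of AID over the AID-E58Q library of the same arm and experiment puts both kinds of base pair on 1 scale. Per C:G position the excess was 3.63 to 12.4 substitutions per 10000 calls in Control, 7.01 to 43.5 in Ugi and 2.88 to 9.10 in UNG. Per A:T position it was 0.449, 0.275 and 0.0227 in Control (experiments 1 to 3), -0.137, -0.0994 and 0.0974 in Ugi, and 0.412, -0.215 and -0.162 in UNG. It was below 0 in 4 of the 9 libraries. Summed over positions, A:T made up 3.80%, 4.22% and 0.106% of the excess in Control, -0.841%, -0.833% and 0.130% in Ugi, and 3.11%, -4.55% and -1.05% in UNG. The largest C:G excess, that of Ugi in experiment 3, went with an A:T share of 0.130%.

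Position by position, edgeR without a block, which takes no account of the pairing by experiment, called no A:T position in any comparison between groups. With the experiment as a block it called a few, which are described further on. These were A307, T46, T47, A92, T596 and A250, and A720 by the single substitution A720T. edgeR's quasi-likelihood test was fitted to the counts of all 674 positions and 18 libraries with the coverage as offset, separately for transitions and transversions, and p-values were adjusted over all positions with a threshold of 0.05. For AID over AID-E58Q, 0 of 248 A:T positions had more transitions in Control, against 2.52% of all positions, 0 of 248 in Ugi, against 22.1%, and 0 of 248 in the mean of the 3 arms, against 19.3%. In UNG 0.0% of all positions had more transitions. No position of either kind had fewer (0.0% in each comparison). At an unadjusted p under 0.05 there were 5, 2, 7 and 3 A:T positions in Control, Ugi, UNG and the mean of the arms.

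Without the block, transversions were not called at any A:T position either. They were called higher at 0 of 248 A:T positions in Control (3.41% of all positions), in Ugi (0.0%), in UNG (3.12%) and in the mean of the arms (4.9%). Of the A:T positions, 0, 0, 1 and 0 had an unadjusted p under 0.05. The fit without a block counts the difference between experiments as spread. Its intervals for transversions at A:T were wide, so these counts cannot speak to modest changes there. Among the single substitutions with at least 10 calls, 734 of 1994 were at A:T, and 0 of them were called higher in Control (2.21% of all), Ugi (4.76%), UNG (1.3%) or the mean of the arms (7.47%), with 8, 5, 10 and 7 at an unadjusted p under 0.05. DESeq2, limma and edgeR with other settings called between 0 and 12 A:T positions in a comparison, which are named in the closing section. The highest counts came with TMM factors, which set the bulk of the positions to no change: 12 A:T positions were then lower in transitions in Ugi (2.08% of all positions lower) and 10 in the mean of the arms (1.63%), and 0 were higher for Ugi over Control with AID (4.75%).

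The A:T fold changes clustered around 0. The median log2 fold change in transitions was 0.05 in Control, -0.06 in Ugi and -0.02 in UNG, beside 0.27, 0.68 and 0.17 over all positions tested. The 10th and 90th percentiles of the A:T positions were -0.47 and 0.62 in Control and -0.58 and 0.45 in Ugi. For transversions the A:T medians were 0.04, -0.05 and -0.05, beside 0.24, 0.02 and 0.31 over all positions.

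**Figure D2:**
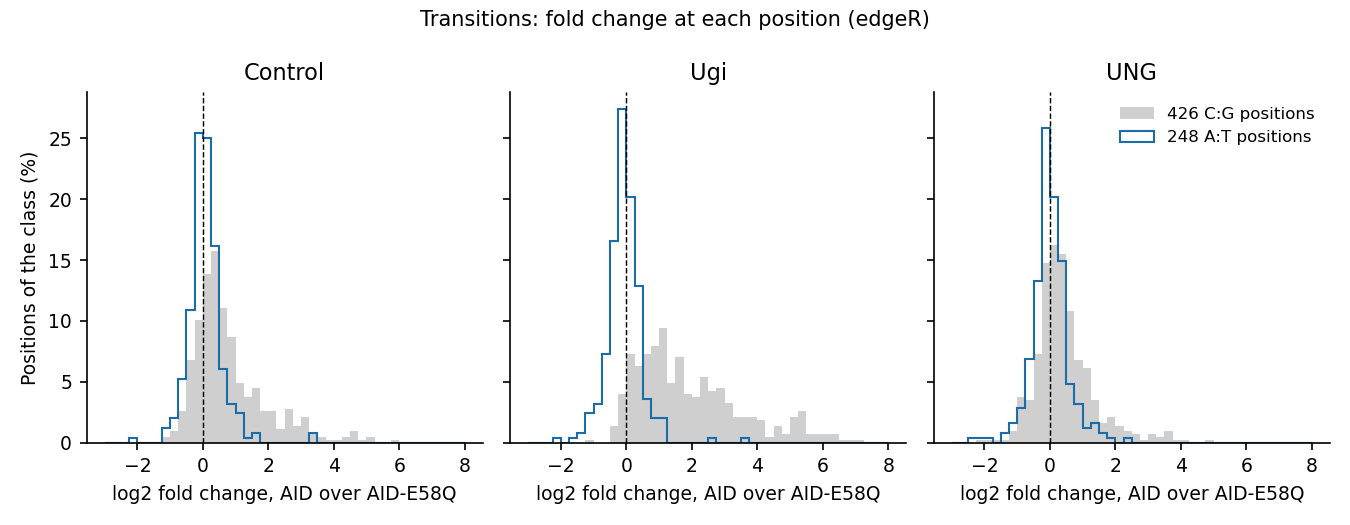
Distribution of edgeR's log2 fold change in transitions, AID over AID-E58Q, at 248 A:T positions (blue outline) and 426 C:G positions (grey), as a percentage of each class, in the Control, Ugi and UNG arms. The A:T outline stands over 0 in every arm with a median between -0.06 and 0.05, while the grey area reaches to the right, most of all in Ugi.

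The test bounds how large a change at a single A:T position could have been. In the mean of the 3 arms, the upper end of the 95% interval of the fold change in transitions had a median of 1.57-fold, and it was under 2-fold at 202 of 248 A:T positions. Within a single arm the median upper end was 2.26-fold in Control, 2.17-fold in Ugi and 2.24-fold in UNG. For transversions the intervals were wider, with a median upper end of 2.33-fold in the mean of the arms. Within a single arm the median upper end for transversions was 4.53-fold in Control, 4.29-fold in Ugi and 4.12-fold in UNG. There the upper end was under 2-fold at 6, 4 and 11 of 248 positions. With the experiment as a block, the median upper ends were 1.47-fold for transitions and 1.44-fold for transversions, and the upper end was under 2-fold at 220 and 226 of 248 positions, against 61 of 248 for transversions without the block.

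Without the block, edgeR called no A:T position for Ugi or for UNG against the empty vector. With it, T46G was lower for Ugi over Control with AID (log2 fold change -2.85, SE 0.83, adjusted p = 0.0355, edgeR with the block), among 3.01% of all single substitutions called lower. Of all positions, 17 of 674 positions had fewer transversions with Ugi than with Control among AID libraries (2.52%), none of them A:T. A:T frequencies with AID were 0.916- to 1.00-fold those of Control in Ugi and 0.953- to 1.13-fold in UNG. With AID-E58Q they were 0.994- to 1.15-fold in Ugi and 1.03- to 1.17-fold in UNG, so the arms differed about as much without deaminase activity. In edgeR's test, 3 A:T positions had an unadjusted p under 0.05 in transitions for Ugi over Control with AID and 2 for UNG over Control. The interactions of Ugi and UNG with AID called 0 A:T positions, with 6 and 2 at an unadjusted p under 0.05 in transitions and 0 and 0 in transversions. In transitions these arm comparisons and interactions called 0.0% of all positions without the block, and in transversions 0.0% except for the 2.52% given above and 0.148% lower in the interaction of Ugi.

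WA/TW, where polymerase eta leaves its mark in B cells, is the first subset of the members. All 6 substitutions together at the 74 WA/TW positions gave AID to AID-E58Q ratios of 1.03 to 1.26 in Control, 0.930 to 1.05 in Ugi and 0.961 to 1.15 in UNG. The 174 other A:T positions gave 0.992 to 1.16, 0.927 to 1.00 and 0.902 to 1.10. The ranges of both contexts overlapped in each arm. Over the 9 pairs the geometric means were 1.04 at WA/TW and 1.01 elsewhere.

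A>G at WA, the substitution most typical of polymerase eta, stood at 2.21, 1.07 and 1.39 per 10000 calls with AID in Control against 1.44, 0.979 and 1.41 with AID-E58Q. Experiment 1 was at 1.54-fold, experiment 2 at 1.09-fold and experiment 3 was at 0.984-fold. A single position, A374, carried part of it, and without A374 the ratio in experiment 1 was 1.38-fold. In Ugi and UNG the ratios for A>G at WA were 0.909 to 1.14 and 0.939 to 1.13.

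Within a library, WA was a poorer, not a richer, site of A>G than the other A positions. The ratio of WA to other A in A>G was 0.630 to 1.09 in the AID libraries of experiments 1 and 2 (median 0.691) and 0.564 to 0.781 in their AID-E58Q libraries (median 0.684). In experiment 3 it was 0.726 to 0.771 with AID and 0.745 to 0.808 with AID-E58Q. Both enzymes gave about the same ratio, and the highest value, 1.09, was that of Control AID in experiment 1. The base before A went with the level of transitions in both enzymes alike. Summed with the mirrored T positions, transitions stood at 2.17 to 2.30 per 10000 calls in the 6 libraries of experiment 3 where the neighbour was C, at 1.74 to 1.98 where it was T, at 1.41 to 1.53 where it was G and at 1.20 to 1.33 where it was A. The order was the same in the medians of experiments 1 and 2.

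A:T positions beside AID's own targets were no exception. Distances were counted in bases from the nearest C or G of a WRCY/RGYW, and 67 A:T positions lay within 1 to 2 bases, 48 at 3 to 5, 57 at 6 to 10, 59 at 11 to 20 and 17 farther away. At 1 to 2 bases, substitutions with AID stood at 3.37, 2.32 and 9.53 per 10000 calls in Control, against 3.26, 2.10 and 9.41 with AID-E58Q. Ratios there were 1.01 to 1.11 in Control, 0.913 to 1.06 in Ugi and 0.897 to 1.11 in UNG. The excess per A:T position within 2 bases lay between -0.480 and 0.354 per 10000 calls over the 9 libraries, while the hotspot C:G positions themselves gained 23.2 to 285.

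The highest ratio of any distance class was at 11 to 20 bases in Control. There the frequencies were 3.92, 2.66 and 7.44 with AID against 2.77, 2.23 and 7.14 with AID-E58Q, or 1.41-, 1.19- and 1.04-fold. Each of these ratios was above 1, while the ranges of both groups overlapped across experiments, whose levels differ. In Control the ratios did not order by distance. In Ugi and UNG the same class had geometric mean ratios of 0.955 and 1.02.

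**Figure D3:**
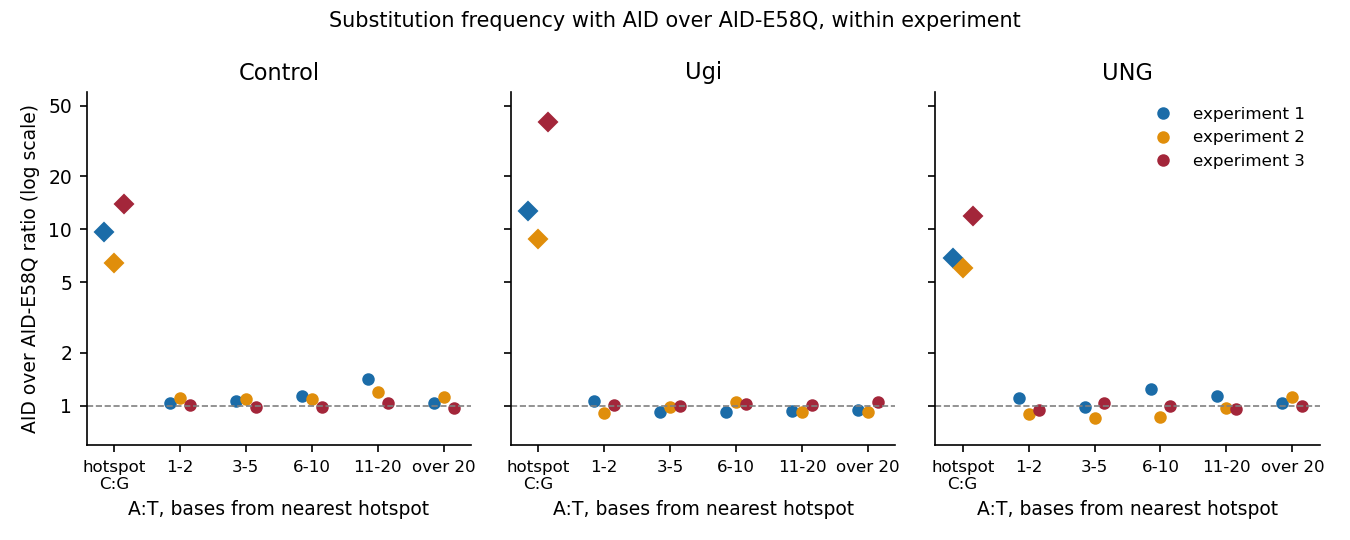
Ratio of the substitution frequency with AID to that with AID-E58Q in the same experiment (logarithmic axis), for the C:G positions in WRCY/RGYW (diamonds) and for A:T positions by their distance in bases from the nearest such C or G (circles), 1 colour per experiment. The diamonds stand at 6.03 to 40.3, and the A:T circles lie along the dashed line at 1 in each arm and distance class.

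The AGCT tetramers give the closest comparison of neighbours. At C151, the C of the first window printed, transitions reached 205, 88.5 and 286 per 10000 calls with AID in Control and 295, 197 and 952 in Ugi, against 1.57 to 6.36 in the 9 AID-E58Q libraries. All 9 AID libraries, the 3 with UNG included (31.3, 51.6 and 108), lay above all 9 AID-E58Q libraries. The T that follows it, T152, had 1.72, 1.65 and 2.15 transitions per 10000 calls with AID in Control, 1.99, 1.36 and 2.88 in Ugi and 1.83, 1.55 and 2.68 in UNG.

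With AID-E58Q, T152 had 2.071, 1.83 and 2.42 in Control, 1.32, 1.29 and 1.89 in Ugi and 1.57, 1.81 and 2.52 in UNG. The groups overlapped in all 3 arms (log2 fold change in the mean of the arms 0.09, SE 0.27, adjusted p = 0.924, edgeR). The A at the other end of the tetramer, A149, had 0.686, 0.688 and 0.429 with AID and 1.02, 0.382 and 0.572 with AID-E58Q in Control (0.22, SE 0.29, adjusted p = 0.777 in the mean of the arms, edgeR). A149 lies in WA, next to the G that AID attacks on the other strand.

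The stop codon showed the same contrast inside a single codon. G231 had transitions in 108, 49.6 and 166 per 10000 calls with AID in Control, against 1.81, 2.67 and 4.84 with AID-E58Q. A230, the base before it, had 2.00, 1.97 and 1.85 with AID and 2.13, 2.34 and 2.50 with AID-E58Q, and all 3 AID libraries were lower than all 3 AID-E58Q libraries. In Control edgeR did not call A230, with or without the block. Its averages went the other way in Ugi (2.16 with AID against 1.67) and UNG (2.89 against 2.42). The mean of the arms did not pass the test (log2 fold change 0.12, SE 0.26, adjusted p = 0.893, edgeR). T229, the first base of the codon, had 1.33, 0.750 and 1.66 with AID and 1.29, 1.60 and 1.98 with AID-E58Q, which overlapped (-0.31, SE 0.27, adjusted p = 0.589, edgeR).

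The files hold 14 A or T positions in AGCT, of which 13 were kept. Their transitions averaged 1.59, 1.38 and 1.51 per 10000 calls with AID in Control against 1.94, 1.46 and 2.13 with AID-E58Q. In Ugi they averaged 1.82, 1.21 and 1.67 against 1.56, 1.24 and 1.77, and in UNG 2.13, 1.09 and 1.48 against 1.68, 1.25 and 1.62. The log2 fold changes of the 13 in the mean of the arms ran from -0.47 to 0.41, and the smallest adjusted p was 0.418 (edgeR).

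**Figure D4:**
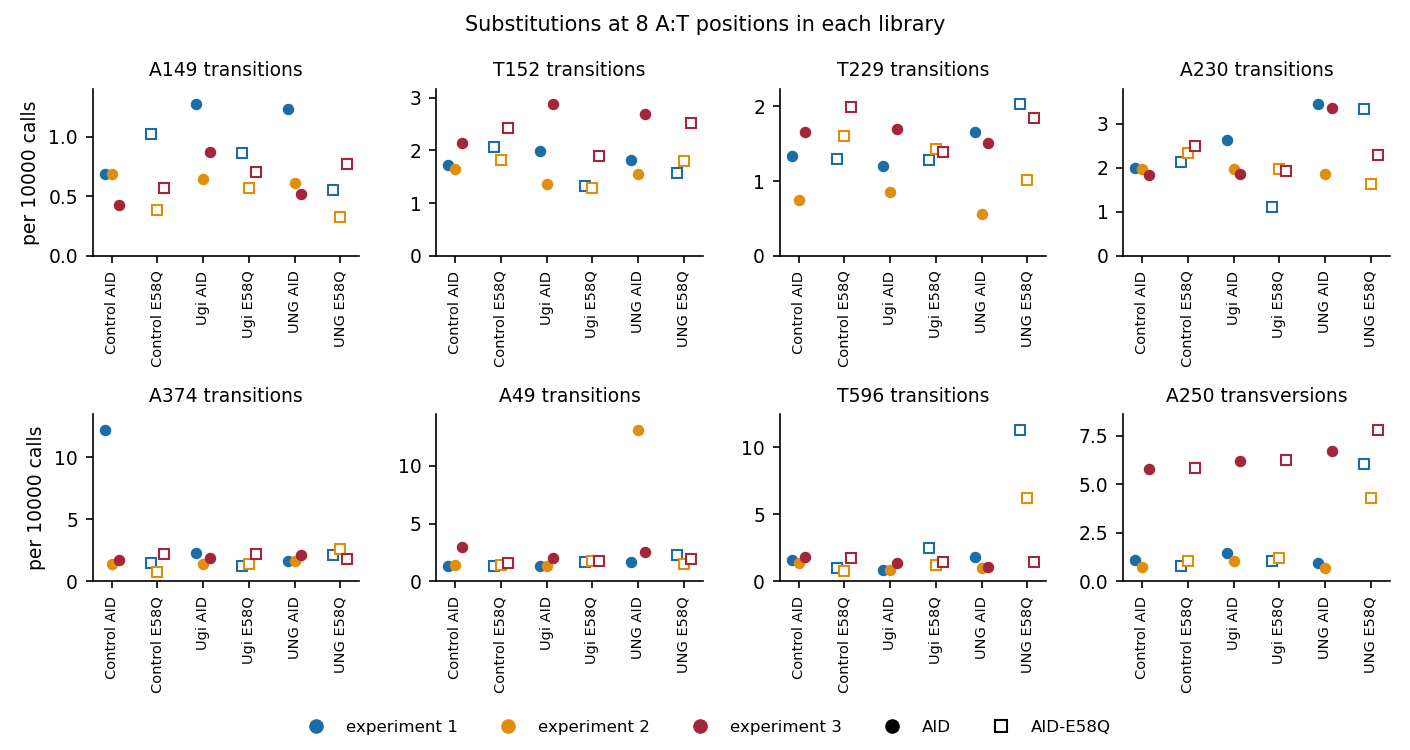
Substitutions per 10000 calls at 8 A:T positions in each of the 18 libraries (filled circles AID, open squares AID-E58Q, 1 colour per experiment). The top row shows A149, T152, T229 and A230, where both enzymes overlap across all libraries, though not within Control at A230. The bottom row shows A374, A49, T596 and A250. At A374 and A49, 1 library stands above the others. At T596, and at A250 within experiments 1 and 2, 2 libraries of UNG with AID-E58Q stand above the others. All libraries of experiment 3 are high at A250.

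The A:T positions with the smallest p-values were spread over the stretch and did not pass. In the mean of the arms, transitions were higher with AID at A49, A307, A488, T622 and A706, with log2 fold changes of 0.61 to 2.03 and adjusted p of 0.163 to 0.373 (edgeR). They were lower at T176, T503, T592, T596 and A635, with log2 fold changes of -0.85 to -0.47 and adjusted p of 0.107 to 0.265. For transversions the positions were A59, A290, T692, A710 and A720 above 0 and A154, T679, A706, A707 and T709 below 0, with adjusted p of 0.684 to 1.00. Several had little coverage, down to 1186 calls at A706 and 1336 at A59.

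The experiment numbers pair libraries across the groups, and with the experiment as a block edgeR did call a few A:T positions. They are named because the block changed their call, and were chosen after their values were seen. A307, in codon 103 and 2 bases from a hotspot, was called higher in transitions in the mean of the arms (log2 fold change 0.72, SE 0.23, adjusted p = 0.0217 with the block, 0.163 without), among 26.4% of all positions called higher. In the single arms the block called 0 A:T positions higher in transitions, against 9.35% of all positions in Control, 30.9% in Ugi and 4.15% in UNG, and 0 lower for UNG over Control with AID (0.742%). Its transitions stood at 2.37, 0.942 and 0.846 per 10000 calls with AID and 1.55, 0.681 and 0.698 with AID-E58Q in Control. They stood at 1.67, 0.656 and 1.05 against 0.753, 0.556 and 0.321 in Ugi, and at 1.50, 0.927 and 0.919 against 1.15, 0.856 and 0.373 in UNG. The AID library was the higher in all 9 pairs.

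T46 was called higher in transversions in Control with the block (a log2 difference of 1.76, SE 0.53, adjusted p = 0.0429, edgeR), among 9.05% of positions. It had 1.90, 0.321 and 2.14 per 10000 calls with AID and 0.249, 0.0357 and 1.37 with AID-E58Q, so the size of the difference came from experiments 1 and 2, and the coverage ceiling touches this position. A720T, in codon 240 and also in WA, was called higher in Ugi (log2 fold change 2.88, SE 0.75, adjusted p = 0.0143) and in the mean of the arms (1.73, SE 0.41, adjusted p = 0.00457, edgeR with the block), among 8.78% and 12.3% of single substitutions.

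In transitions, 3 positions went the other way with the block. In Ugi, T47 had 0.944, 0.665 and 0.973 per 10000 calls with AID and 1.83, 1.45 and 2.62 with AID-E58Q (-1.18 on the log2 scale, SE 0.42, adjusted p = 0.0344, edgeR with the block). A92 had 1.24, 0.863 and 0.514 against 2.23, 2.63 and 1.68 (-1.36, SE 0.44, adjusted p = 0.0211). These groups did not overlap at either position, and 0.297% of all positions were called lower in that comparison. In UNG, T596 had 1.81, 0.996 and 1.06 with AID and 11.3, 6.21 and 1.43 with AID-E58Q (-2.06, SE 0.51, adjusted p = 0.0198), and here the inactive-enzyme libraries of experiments 1 and 2 stood above all other libraries of the study, the next being 2.52.

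A250 followed the same pattern in transversions. In UNG it had 6.05, 4.30 and 7.82 per 10000 calls with AID-E58Q and 0.928, 0.689 and 6.73 with AID (-1.83 on the log2 scale, SE 0.42, adjusted p = 0.00784, edgeR with the block), among 0.148% of positions called lower. In the other 2 arms, experiments 1 and 2 gave 0.722 to 1.46 at A250 with either enzyme. T596 and A250 were thus raised in the same 2 libraries, UNG with AID-E58Q in experiments 1 and 2, which hold no active deaminase.

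A set of 6 single substitutions stood out in 1 AID library each. The criterion, set after seeing the values, was a frequency at least 3-fold that of each of the other 17 libraries on at least 20 substituted calls. A49G reached 13.1 per 10000 calls (654 of 498497) in UNG with AID of experiment 2, against at most 2.96 elsewhere. A374G reached 12.2 in Control with AID of experiment 1, against at most 2.63, and T371A, 3 bases away in the neighbouring codon, reached 7.68 in Control with AID of experiment 2, against at most 1.47.

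A547T reached 5.73 in Ugi with AID of experiment 2 (next 1.28), A296T 4.45 in UNG with AID of experiment 2 (next 0.996) and A719C 1.35 in UNG with AID of experiment 1 (next 0.431). All 6 lay in AID libraries and in 5 different libraries. With at least 10 substituted calls in place of 20 the counts were the same, 6 with AID and 0 with AID-E58Q. The criterion cannot count a change raised in 2 libraries, so T596 and A250 in UNG with AID-E58Q are left out of these counts. These 6 are 0.806% of the 744 possible changes at A:T, and at C:G the same criterion was met by 11.9% of 1278 changes with AID and by 0 with AID-E58Q. In experiments 1 and 2 the AID libraries were deeper, with a median of 92729 to 144184 calls at A:T positions against 38479 to 83753 with AID-E58Q, and the part of depth in this count was not tested. The 6 lay 5 to 25 bases from the nearest hotspot, and only A374 was in WA.

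The clearest pattern at A:T belonged to the experiment. In experiment 3, A>C stood at 4.31 to 4.58 per 10000 calls in all 6 libraries and T>G at 7.50 to 7.90. In experiment 1 A>C stood at 0.660 to 0.832 and T>G at 1.02 to 1.33, and in experiment 2 at 0.429 to 0.575 and 0.691 to 0.896. The libraries of experiment 3 did not overlap those of the others, and AID and AID-E58Q were alike in it (A>C 4.45 to 4.54 with AID, 4.31 to 4.58 with AID-E58Q). A>G in experiment 3 (1.71 to 1.77) overlapped experiment 1 (1.73 to 2.28) and lay above all libraries of experiment 2 (1.17 to 1.41).

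In a comparison added after seeing this, with group and experiment in edgeR's model, A>C was higher in experiment 3 than in the mean of experiments 1 and 2 at 135 of 146 A positions tested (median 6.53-fold) and T>G at 97 of 101 T positions (6.84-fold), against 34.5% of all 1994 substitutions. A>G was higher at 12 and lower at 2 of 146 positions (median 1.10-fold), A>T higher at 30 of 141, T>A at 24 of 99 and T>C at 15 of 101. At C:G, the transitions rose too, with G>A higher at 155 of 204 positions (median 2.29-fold) and C>T at 133 of 221 (2.01-fold). The C:G transversions had median folds of 0.879 to 1.14. A rise in experiment 3 was thus not particular to A:T, though the median folds of A>C and T>G were the largest. Experiments 1 and 2 were closer, with 2 to 11 positions higher in experiment 1 for each A:T substitution and median folds of 1.40 to 1.65. The C:G substitutions ran from 2 of 221 (C>T) to 29 of 215 (C>G) higher, with median folds of 1.31 (G>A) to 1.83 (C>G), so this difference was not particular to A:T. Of the calls at A:T positions, 1.54% to 1.76% failed the quality limit in experiment 3, against 0.424% to 0.513% and 0.382% to 0.450% in experiments 1 and 2, and the part of call quality in the pattern was not tested.

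The rise differed between windows of the reporter, and A>C and T>G differed in where it was low. At positions 45 to 139, A>C in experiment 3 was 0.576 to 0.867 per 10000 calls, while T>G was 10.2 to 12. This A>C overlapped the 0.406 to 0.959 of experiment 1 and lay above the 0.209 to 0.449 of experiment 2. It was 1.48-fold the mean of experiments 1 and 2. A59C, the highest A>C of experiments 1 and 2, averaged 2.35 in them and 0.0539 in experiment 3, and A>C was not recomputed without it. In that window T94 and T80 held 25.5% and 19.3% of the summed T>G of its 16 T positions, and without them T>G was 6.71 to 7.89, a comparison added after seeing the values. At positions 140 to 239, A>C was 4.80 to 5.57, and it was 3.76 or more in each window of the rest of the stretch. T>G was 8.15 to 8.87 at 140 to 239 and 3.40 to 4.24 at 640 to 723, where A>C was 4.68 to 5.17. Of the 15 A>C or T>G changes that were not called higher in experiment 3, 8 lay between positions 49 and 92, 7 of them at A, and 7 lay between 679 and 722. A58C (log2 fold change -3.66, adjusted p = 0.00911) and A59C (-5.23, adjusted p = 6.55e-06, edgeR with group and experiment) were called lower in experiment 3, A59 on as few as 1336 calls in a library.

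**Figure D5:**
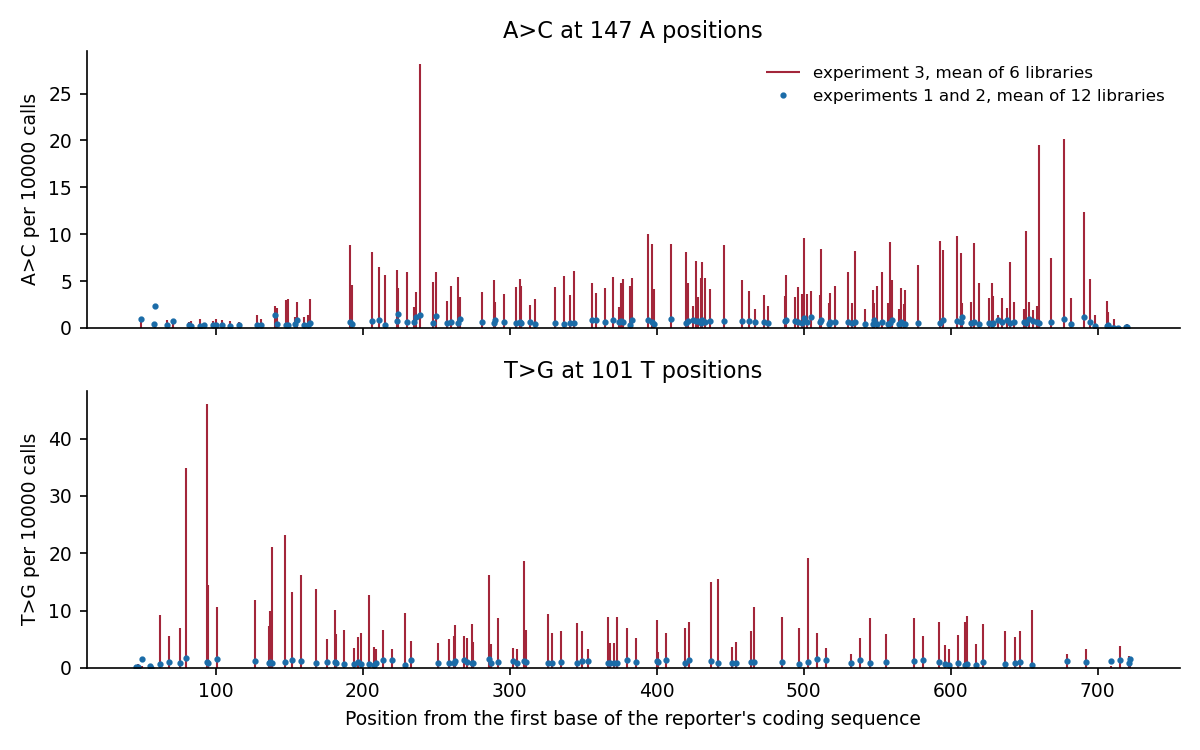
A>C at each of 147 A positions (top) and T>G at each of 101 T positions (bottom) in calls per 10000, against the position counted along the coding sequence; red lines are the mean of the 6 libraries of experiment 3 and blue dots the mean of the 12 libraries of experiments 1 and 2. In experiment 3 the A>C lines are low up to position 139, where the lines of T80 and T94 are the highest for T>G.

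The positions of the 6 printed windows were picked for the highest mean T>G and A>C over the 9 AID-E58Q libraries, those of experiment 3 included. The fold changes and p-values given for them here and in the next paragraph come from the values that picked them. They describe the size of the rise and are no independent test of it. T94G, the first base of codon 32, had 42.0 to 48.8 per 10000 calls in the 6 libraries of experiment 3 and 0.218 to 1.96 in the other 12 (49.9-fold, adjusted p = 4.51e-11, edgeR with group and experiment). T80G had 13.4 to 43.5 against 0 to 3.97 (20.8-fold, adjusted p = 2.16e-09) and T147G, 2 bases before A149, had 19.1 to 25.7 against 0.461 to 1.65 (24.7-fold, adjusted p = 5.33e-12). All are among the windows printed above, and none overlapped between the experiments.

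Among A positions, A239C had 20.4 to 33.7 per 10000 calls against 0.647 to 2.29 (20.6-fold, adjusted p = 1.92e-11), A660C 18.2 to 23.1 against 0 to 1.18 (39.0-fold, adjusted p = 4.47e-11) and A677C 15.9 to 23.2 against 0 to 2.60 (25.4-fold, adjusted p = 9.84e-09, all edgeR with group and experiment). A677 had as few as 3371 calls in a library. The rise was otherwise spread, and the 5 highest A positions held 13.9% of the summed A>C of experiment 3 and the 5 highest T positions 18.6% of the T>G.

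A few positions, picked by the same rule from the same values, marked other experiments. T50A had 9.93 to 12.9 per 10000 calls in all 6 libraries of experiment 2, with either enzyme and in each arm, and 0.471 to 0.812 in experiment 1 and 0.825 to 1.19 in experiment 3. It was 0.0548-fold in experiment 1 relative to experiment 2 (adjusted p = 7.64e-09, edgeR with group and experiment). A668G was higher in experiments 1 and 2 (7.36 to 20.9) than in experiment 3 (3.81 to 5.77, 0.411-fold, adjusted p = 3.60e-04).

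In the profile along the A:T positions, experiment 3 stood apart from the others. As a description, Pearson's r of the log2 frequencies (0.5 added to counts) over the 248 positions was 0.914 to 0.956 between the 6 libraries of experiment 3, 0.436 to 0.711 within experiment 1 and 0.465 to 0.710 within experiment 2. Between experiments 1 and 2 it was 0.380 to 0.754, which overlapped the values within each of them, and between experiment 3 and the others it was 0.0170 to 0.344. All libraries share the positions and their reference bases, so these values are not independent.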

How the data were processed

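The sheets hold, for each position and library, counts of calls with a Phred quality over 20 and of each substitution among them, per the file headers. The deposited fractions equalled the ratio of these counts, so the counts alone were used. CASAVA 1.7, Novoalign 2.07.04 and SAMtools 0.1.11 are named in the submitters' processing notes; how the reads were aligned is not given in the sources used here.

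Positions with fewer than 1000 calls in any library were left out. edgeR 4.0.16 (glmQLFit, glmQLFTest, R 4.3.3) was fitted to all 18 libraries with group means and the logarithm of coverage as offset, for transitions, transversions and single substitutions with at least 10 calls. P-values were adjusted by Benjamini-Hochberg over all positions, A:T and C:G, with a threshold of 0.05. The procedure was tried on simulated counts that held no difference between experiments. That trial cannot show how the fits handle such differences. Alternatives were the experiment as a block, TMM factors, DESeq2 1.42.0, limma 3.58.1 (0.5 added to counts), a minimum of 10000 calls, other filters, only the groups compared, both ends trimmed by 25 positions, and each library or experiment left out. Means over positions, contexts, distances and windows were not tested.

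Equal experiment numbers mark a shared experiment in the labels, and same-numbered libraries deviated together in each comparison (r of 0.112 to 0.631 for transitions, 0.340 to 0.834 for transversions, over the 674 positions). Libraries of different groups and numbers gave -0.453 to 0.335 and -0.689 to 0.470, so the ranges overlapped. Deviations were taken from group means, which lowers r between different numbers. Same-numbered libraries were taken as pairs for the ratios and the excess within an experiment and in the fit with the block. edgeR's fit without the block used group means only and took no account of the pairing. Positions named by rule were A:T positions past the threshold, the 5 smallest p-values in each direction in the mean of the arms, T229 and A230, the A and T of AGCT, and the 3 highest per substitution in AID-E58Q. The members, lists and tests were chosen with earlier results of these data known. The windows along the reporter, the experiment comparison, the removal of A374 and the search for changes raised in 1 library were added after seeing the values.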

Additional observations from a re-analysis of the deposited data

How the results depend on the processing

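With the experiment as a replicate block, edgeR called A:T positions where the fit without it called 0. In transitions these were 2 lower in Ugi (T47, A92), 1 lower in UNG (T596) and 1 higher in the mean of the arms (A307). In transversions they were 1 higher in Control (T46) and 1 lower in UNG (A250). Among single substitutions they were 1 higher in Control (T46G), 1 higher in Ugi (A720T), 3 lower in UNG (A250C, A250T, T596C), 1 higher (A720T) and 1 lower (A250T) in the mean of the arms, and 1 lower for Ugi over Control with AID (T46G). The block changed no other count. TMM factors moved the median log2 fold change of all positions in transitions by -0.83 in Ugi, -0.37 in the mean of the arms and -0.26 in Control, and with them 12 A:T positions were lower in Ugi (T47, T55, A92, T137, T208, T287, A317, T466, A557, A559, T610 and T722), 10 in the mean of the arms (T47, T168, T176, T229, A250, T367, A433, T503, T592 and T596) and 1 in UNG (T596, with 0.297% of all positions lower; also T596C, with 0.1% of single substitutions lower). The A:T median moved by -0.69 in Ugi. DESeq2 called 2 lower in Ugi and in Ugi over Control with AID (T47, T55 in each, with 0.298% of all positions lower), 1 higher in UNG (A49, with 3.28% higher), 1 single substitution lower in Ugi (T47C) and in UNG (T596C; 0.102% of all lower in each), and 2 lower in the interaction of Ugi with AID (T47C, T55C, with 0.915% lower). limma called 1 higher (A89, with 16.0% higher) and 1 lower (A92, with 0.148% lower) in Ugi and 1 single substitution lower in the mean of the arms (A707C, with 0.0502% lower).

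Leaving out a library or an experiment gave 0 to 2 lower in transitions in Ugi, and 0 to 1 in each of 12 other counts. The 2 were A92 and A643, without Ugi AID of experiment 1 (0.297% of all positions lower). Without experiment 3, in transitions, A374 was higher in Control (5.04% higher), A89 higher in Ugi (13.8%) and T596 lower in UNG (0.148% lower). In these fits the share of all positions or single substitutions called in the same direction as an A:T position was 0.0502% to 19.6%. The other libraries whose removal gave 1 call were Ugi AID of experiments 2 and 3, Control AID-E58Q of experiment 1, and Ugi and UNG AID-E58Q of experiment 3. The counts stayed at 0 with at least 10000 calls, other count filters, only the groups compared and trimmed ends. The AID to AID-E58Q ratio at TA in place of WA/TW was 0.89997 in UNG (1.02 at WA/TW). Of the ratios by distance, 4 moved by more than their spread with the nearest AGCT and 1 with the median over positions. The cause of these moves was not tested. Depth limits single positions, with as few as 1092 calls at A698, 1186 at A706 and 1336 at A59.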

Other observations

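Base 3 of a codon stood at another level than bases 1 and 2 at A:T, on 10 positions only. Of the 248 A:T positions, 10 are base 3 of a codon, 99 are base 1 and 139 are base 2. In experiment 3 these 10 carried 13.1 to 14.1 substitutions per 10000 calls, against 8.39 to 8.97 at base 1 and 7.68 to 7.87 at base 2. In experiment 1 base 3 was the lowest, with 2.19 to 2.59 against 3.16 to 3.99 at base 1 and 3.02 to 4.06 at base 2, which overlapped each other. In experiment 2 it was also the lowest, with 1.50 to 2.02 against 2.04 to 2.43 and 2.35 to 2.76. Without A>C and T>G, base 3 stood at 2.11 to 2.88 in experiment 3, base 1 at 2.62 to 2.77 and base 2 at 2.48 to 2.60. With A>C and T>G included, a few of the 10 positions weigh heavily at base 3. T138G, T147G and A660C averaged 21.1, 23.3 and 19.5 per 10000 calls in experiment 3. Near the end of the stretch, A711C, A714C and A720C averaged 0.996, 0.0891 and 0.469 in experiment 3 and 0.0257, 0.0234 and 0.0730 in experiments 1 and 2. The ranges are over the 6 libraries of an experiment, AID and AID-E58Q together, and no test was made.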
